A study of Mus musculus with 36 samples.

Results

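Gene expression in quadriceps muscle of sarcoglycan-deficient mice was compared between 20 and 12 weeks of age, the last interval of a time series that began at 1 week. The comparison uses the 8 of 36 dual-channel arrays that hybridised 14-week against 12-week muscle or 20-week against 14-week muscle, 4 from each of the strains BSG and GSG. BSG mice lack beta-sarcoglycan and model the limb-girdle muscular dystrophy LGMD-2E, and GSG mice are a model of another limb-girdle dystrophy that lacks a different sarcoglycan. The groups were therefore BSG and GSG muscle at 12, 14 and 20 weeks, each from 2 mice that received no treatment named in the labels. All of the animals are sarcoglycan-deficient, so what ageing alone does to healthy muscle cannot be told apart from the disease here, and wild-type and MDX muscle are not analysed here.

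The 36 arrays form 4 closed loops, 2 per strain, and each loop holds 1 mouse of each of 9 ages from 1 to 20 weeks. On each array the Cy5 channel held the later age and the Cy3 channel the age before it, except on the array that closes a loop, where the 1-week mouse was in Cy5 and the 20-week mouse in Cy3. The log2 ratio of the 14/12 array plus that of the 20/14 array of a loop gives the 20-week mouse against the 12-week mouse of that loop, and the 14-week mouse cancels. This loop sum was available for 4 loops (BSG loops 1 and 2, GSG loops 1 and 2) and for 8129 oligonucleotides, of which each was printed as 2 spots that were averaged.

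The sarcoglycans are transmembrane subunits of the dystrophin-associated complex, which links the cytoskeleton of a muscle fibre to the basement membrane. Without them the membrane is prone to tear during contraction, fibres die and are replaced from satellite cells, and macrophages drawn in by chemokines clear the debris. With repeated rounds of damage, inflammation and deposition of extracellular matrix persist beside regenerating fibres. Ratios were measured within a strain only, so the level of a gene in BSG cannot be set against that in GSG, and in whole muscle fewer cells of a type and less RNA per cell cannot be told apart.

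The direction of the ratios is not stated in the sources used here and was checked on genes of newborn muscle, which are known to decline after birth. Of 17 such genes, 14 were lower at 20 weeks than at 1 week in BSG (median log2 ratio -0.46) and 15 in GSG (median -0.96), with *Dlk1*, an imprinted inhibitor of differentiation, at -3.05 and -3.54. The direction used here is therefore likely and not certain. Over the 8 arrays the ratios of duplicate spots correlated at 0.530, 0.533, 0.555 and 0.502 on the arrays of the loops numbered 2, and at 0.192, 0.316, 0.234 and 0.180 on those of the loops numbered 1. The loops numbered 1 are thus the noisier ones in both strains.

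No gene passed the test for a difference between 20 and 12 weeks. Of 8129 oligonucleotides, 0 (0.00%) had a Benjamini-Hochberg adjusted p under 0.05 in limma for the mean loop sum of the 4 loops, and the smallest adjusted p was 0.0622. At an unadjusted p under 0.05 there were 1211 (14.9%), of which 688 were higher at 20 weeks (8.46%) and 523 lower (6.43%). Least squares without the moderation of limma called 1. With the strains apart, 0 were called in BSG (676 unadjusted) and 0 in GSG (759 unadjusted), and the smallest adjusted p were 0.512 and 0.341. For the difference between the strains 0 were called and 237 had an unadjusted p under 0.05 (2.92%). The count of 0 for the mean depended on the loops used. Without GSG loop 1 there were 20 called in the mean of the remaining 3 loops. Without both loops numbered 1 there were 915, which rest on a spread taken from the 2 loops numbered 2 alone. With a loop of a strain left out, 1 loop remained in that strain, so no spread could be measured within it.

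The loop sum carries a second quantity beside age. Because a loop is closed, all age differences cancel in the mean of its 9 arrays, and a ratio that is left over, beside noise, belongs to the channel and not to any age. This loop mean differed from 0 for 2838 oligonucleotides (34.9%) in limma, 1742 of them on the Cy5 side and 1096 on the Cy3 side. Across the 8129 oligonucleotides the mean loop sum correlated with 2 times the mean loop mean at 0.797. The 2 quantities share the 14/12 and 20/14 arrays, but the loop sum of GSG correlated at 0.584 with the loop mean of BSG and the loop sum of BSG at 0.432 with the loop mean of GSG, which share no array. These correlations are descriptions across oligonucleotides, which are not replicates.

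**Figure D1:**
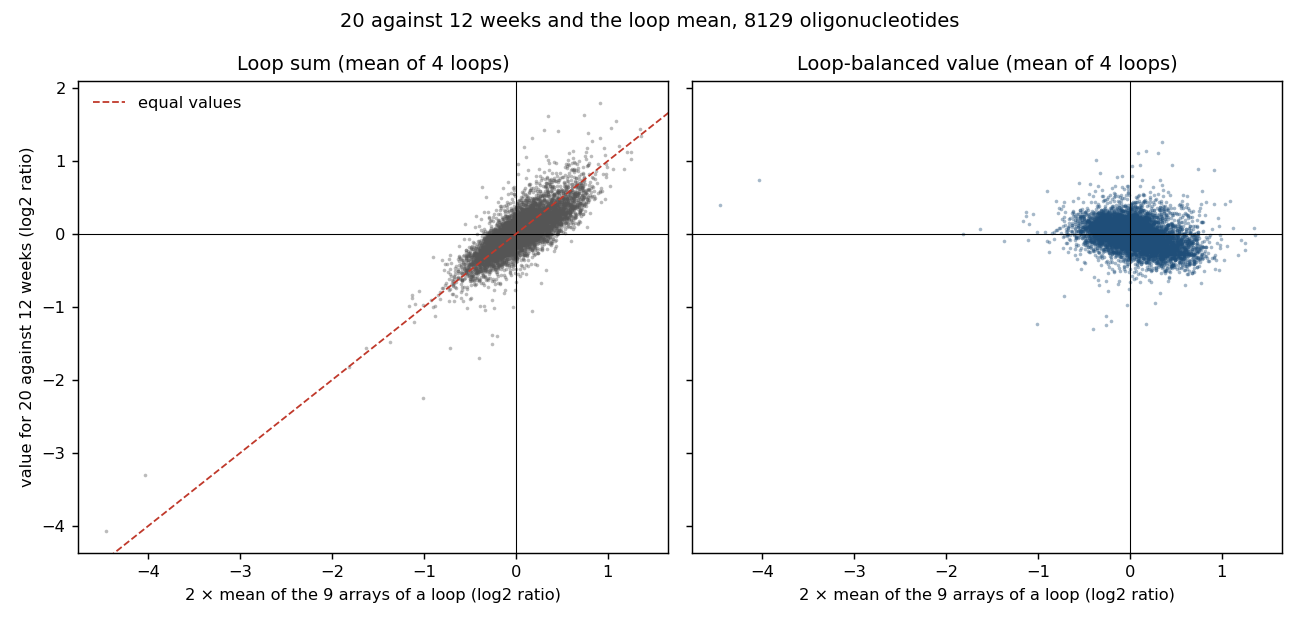
Each point is 1 of 8129 oligonucleotides, with 2 times the mean of the 9 arrays of a loop on the x axis and the value for 20 against 12 weeks on the y axis, both as log2 ratios averaged over the 4 loops. The loop sums (left) lie along the line of equal values (r = 0.797), and the loop-balanced values (right) slope slightly the other way (r = -0.333).

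A second estimate was therefore set beside each loop sum. The loop-balanced value is the loop sum minus 2 times the mean of the 9 arrays of that loop, which is what least squares over all arrays of a loop gives for 20 against 12 weeks. It is free of any channel offset that is the same on all arrays of a loop. Its standard deviation over oligonucleotides was 0.187, against 0.291 for the loop sum. The correlation with the loop mean was then -0.333 in place of 0.797. In a further version the loop mean was subtracted by the slope fitted across oligonucleotides in each loop (0.551 and 0.989 in BSG, 0.727 and 1.15 in GSG). The loop-balanced values gave 0 called oligonucleotides, with 447 at an unadjusted p under 0.05 (5.50%), of which 168 were higher (2.07%) and 279 lower (3.43%), and the smallest adjusted p was 0.767. Without both loops numbered 1 there were 4 called in place of the 915 of the loop sum, among them *Orm1*, an acute-phase protein, and *Cyp2f2*, a cytochrome P450 of the lung, both chosen after their values were seen. The fitted slopes gave 0 called and 444 at an unadjusted p under 0.05 (5.46%).

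The genes that came nearest to the threshold by the loop sum differed in how far they kept their value once the loop mean was subtracted. *Nr4a2*, an orphan nuclear receptor of the immediate-early class, had loop sums of 1.78 and 1.30 in BSG and 1.34 and 1.75 in GSG. Its mean was 1.54 ± 0.14 (SE, adjusted p = 0.0622 in limma), and its loop-balanced mean 0.45. All 4 loop sums lay far above 0 and the strains overlapped. *Itgb3*, the integrin beta 3 subunit of platelets and endothelial cells, had 1.08, 1.06, 1.24 and 1.33 in BSG loops 1 and 2 and GSG loops 1 and 2, a mean of 1.18 ± 0.12 (adjusted p = 0.0714), and a loop-balanced mean of 0.22. For *En1*, a homeobox gene of the developing brain and limb, the mean loop sum of 1.35 left a loop-balanced mean of -0.01. *Tnnc2*, the calcium-binding troponin subunit of fast fibres, had loop sums of 0.72, 1.22, 0.89 and 0.72, all above 0, and a loop-balanced mean of -0.29.

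Among the genes lower at 20 weeks by the loop sum, *Phlda2*, an imprinted gene that restrains placental growth, had nearly the same value in every loop. Its loop sums were -0.87, -0.87, -0.90 and -0.88 (mean -0.88 ± 0.11, adjusted p = 0.0754 in limma), and its loop-balanced mean was -0.29. The gelatinase *Mmp9* had a mean of -0.92 and a loop-balanced mean of -0.25, and the collagenase *Mmp13* means of -0.64 and -0.15. The DNA repair glycosylase *Mbd4* had -1.04 and -0.70, and the spliceosomal protein gene *Snrnp70* -0.68 and -0.50, so that these 2 kept most of their value, although the loop sum of *Snrnp70* was -0.20 on first and -1.15 on second spots alone. In *Mbd4*, GSG loop 1 alone lay below -2 on the loop-balanced scale, as the plot of these genes shows.

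**Figure D2:**
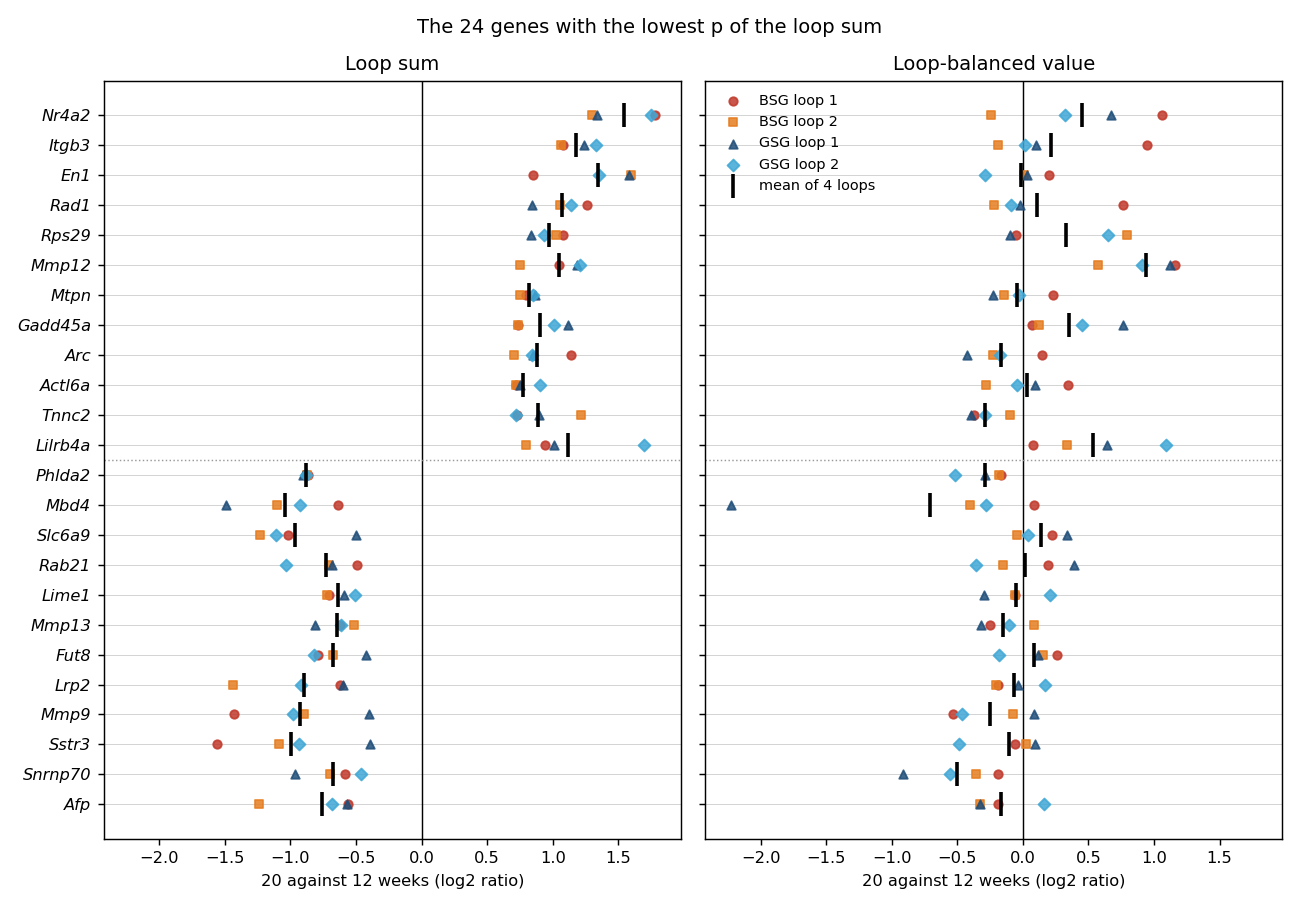
The 12 genes with higher and the 12 with lower values at 20 weeks that had the lowest p of the loop sum, with the log2 ratio of 20 against 12 weeks on the x axis, 1 symbol per loop and the mean of 4 loops as a bar. Loop sums (left) share a sign in all 4 loops, as the rule for naming them required, whereas the loop-balanced values (right) gather near 0, with medians of 0.16 and -0.13 against 1.01 and -0.82.

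Over the 24 genes ranked by the loop sum, the 12 higher ones had a median loop sum of 1.01, a median loop-balanced value of 0.16 and 2 times the loop mean at a median of 0.91. For the 12 lower ones these medians were -0.82, -0.13 and -0.64. The loop-balanced mean had the sign of the loop sum in 8 of the 12 higher and 9 of the 12 lower genes, and in all 4 loops in 3 and 2 of them. By the loop sum, 11.6% of all oligonucleotides were above 0 and 12.3% below 0 in all 4 loops. On the loop-balanced scale above 0 in all 4 were 6.79% of all oligonucleotides, and below 0 in all 4 were 8.19%. Another reading of the same 12-week and 20-week mice comes from the 7 other arrays of a loop, taken with their sign turned, in which a constant channel offset enters the opposite way. By it 1 of the 12 higher genes, *Mmp12*, and 0 of the 12 lower genes had the sign of the loop sum. Over all oligonucleotides this reading and the mean loop sum correlated at -0.691. The loop-balanced value is their weighted mean, 7 parts of 9 loop sum and 2 parts of 9 this reading, so it must share their sign where both agree and is no independent measurement.

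Of these 24 genes *Mmp12* was the only one whose mean over the loops had the same sign by the loop sum and by the 7 other arrays. It encodes macrophage metalloelastase, a protease that macrophages secrete to degrade elastin and other matrix proteins. The loop sums were 1.05 and 0.75 in BSG and 1.18 and 1.21 in GSG, with a mean of 1.05 ± 0.13 (adjusted p = 0.0754 in limma). On the loop-balanced scale the values were 1.16, 0.57, 1.13 and 0.91, with a mean of 0.94 ± 0.13, and the mean by the 7 other arrays was 0.58. By the loop sum and the loop-balanced value, the 20-week mouse thus had the higher *Mmp12* ratio in each of the 4 loops. By the 7 other arrays this held only in the loops numbered 1, the noisier ones. The unadjusted p of *Mmp12* was 0.000109 in limma, the lowest of the loop-balanced values of named genes above 0, with an adjusted p of 0.767.

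Other genes also ranked among the highest by the loop-balanced value. *Gpr65*, a proton-sensing receptor of immune cells, had 0.87, 0.40, 0.46 and 0.79 (mean 0.63 ± 0.13). *Cd53*, a tetraspanin found on leukocytes, had 0.64, 0.27, 0.64 and 0.71 (mean 0.57 ± 0.12). For *Msr1*, the macrophage scavenger receptor, the values were 0.53, 0.25, 0.42 and 0.46 (mean 0.41 ± 0.11). In each of these genes BSG loop 2 had the lowest of the 4 values, and no loop lay below 0. Genes of other roles stood beside them, among them *Slc2a3*, a glucose transporter of neurons and leukocytes (0.43), *Atp6v1b2*, a subunit of the proton pump of lysosomes (0.58), *Anxa7*, a calcium-dependent membrane-binding annexin (0.38 ± 0.11), *Rnase1*, a secreted ribonuclease (0.44), and *H2-Q2*, of the class I histocompatibility region (0.44), to whose oligonucleotide transcripts of related genes may also hybridise. All 12 had loop sums above 0, *Rnase1* only at 0.06, but the loop sum makes up most of the value by which they were picked. The single spots of some of these genes differed, with loop-balanced means of 0.25 and 0.64 for *Rnase1*, 0.21 and 0.65 for *Slc2a3* and 0.60 and 0.23 for *Msr1* on first and second spots alone, against 1.02 and 0.86 for *Mmp12*. For *Zfp287*, 1 oligonucleotide ranked here at 0.59 while its other oligonucleotides gave 0.20 and 0.06.

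The genes at the other end had mixed roles. *Cish*, a feedback inhibitor of cytokine and growth hormone signalling through STAT5, was lowest, with loop-balanced values of -1.54, -0.86, -0.88 and -0.53 (mean -0.95 ± 0.17, unadjusted p = 0.000458, adjusted p = 0.767 in limma) and a mean loop sum of -0.68. *Fabp3*, the fatty acid carrier of heart and oxidative muscle, had -0.90, -0.37, -0.62 and -0.27 (mean -0.54 ± 0.13), and *Cox8b*, a muscle isoform of a cytochrome c oxidase subunit, -0.74, -0.29, -0.88 and -0.21 (mean -0.53 ± 0.14). *Myoz2*, the Z-disc protein calsarcin of slow fibres, had -0.77, -0.66, -0.21 and -0.34 (mean -0.50 ± 0.13). *Col15a1*, a collagen of the basement membrane zone of muscle and vessels, had -0.54, -0.67, -0.98 and -0.24 (mean -0.61 ± 0.14). In all of these GSG loop 2 or GSG loop 1 lay nearest to 0. *Prkaca*, the catalytic subunit of protein kinase A, had a mean of -0.58 ± 0.12 that came mainly from 1 of its spots (-0.14 on first and -1.01 on second spots alone). The transcriptional coactivator *Eya4* (-0.52) was alike in this, with -0.93 and -0.11. For *Coq8a*, a kinase-like protein of ubiquinone synthesis, the mean was -0.52, with -0.57 and -0.47. Of the 12 genes, 10 had loop sums below 0, which again make up most of the value that picked them, the exceptions being *Fabp3* (0.14) and *Msrb1*, a methionine sulfoxide reductase (0.01). The 12 higher and 12 lower genes were picked for these values, so their common sign in all loops is a property of the choice.

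**Figure D3:**
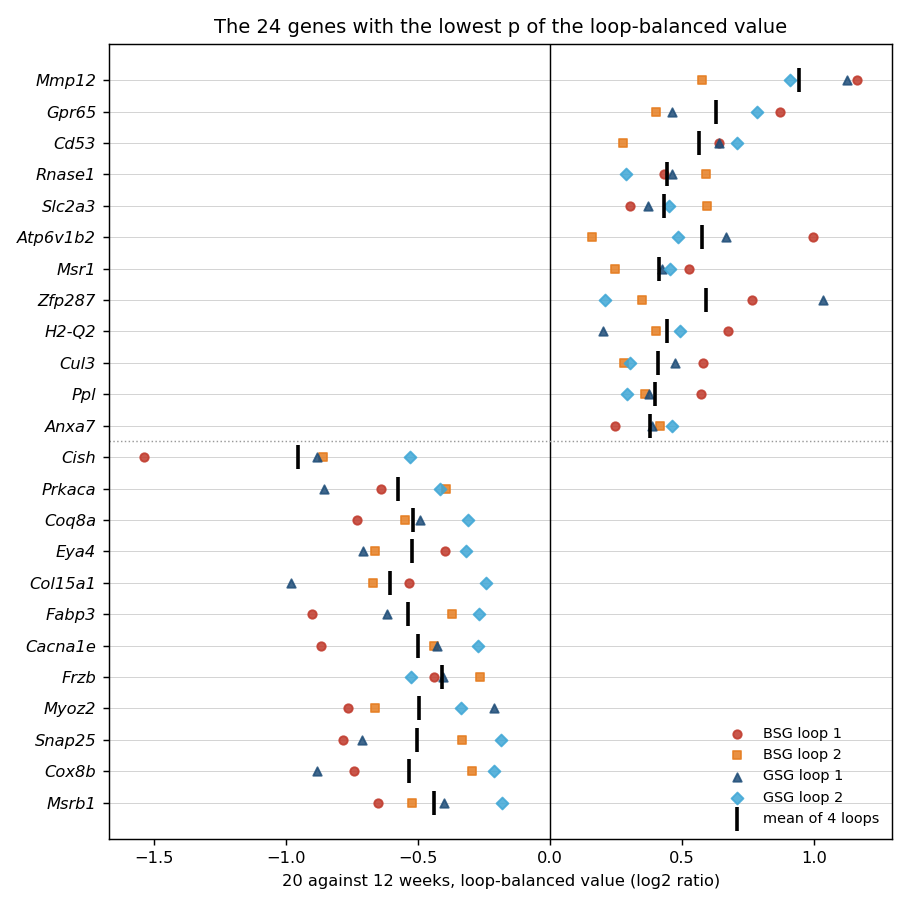
Loop-balanced log2 ratios of 20 against 12 weeks (x axis) for the 12 genes with higher and the 12 with lower values at 20 weeks that had the lowest p on this scale, 1 symbol per loop and the mean of 4 loops as a bar. *Mmp12* reached the highest mean (0.94) and *Cish* the lowest (-0.95), and all 24 had the same sign in all loops, by which they were chosen.

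Genes of macrophages lay above 0 as a group. Of 20 measured macrophage genes, 19 had a loop-balanced mean above 0, against 48.2% of all oligonucleotides, with a median of 0.24 against -0.01 over all. The exception was *Cybb* (-0.11), a subunit of the phagocyte oxidase. By the loop sum the median was 0.53 and 17 were above 0 (52.3% of all oligonucleotides), and with the fitted slopes the median was 0.26 and 19 were above 0 (47.8% of all). At an unadjusted p under 0.05, 2 loop-balanced values were higher, *Msr1* and *Cd14*, the coreceptor for endotoxin (1.23, 0.21, 0.33 and 0.49, mean 0.56 ± 0.17), and 0 lower, against 2.07% and 3.43% of all oligonucleotides. None of the 20 was called.

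The loops did not share this equally. The median of the macrophage genes was -0.26 and 0.20 in the BSG loops and 0.12 and 0.77 in the GSG loops. *Cd68*, the lysosomal marker of macrophages, had loop-balanced values of -0.46, -0.05, 0.12 and 1.00, and *Adgre1*, which encodes the F4/80 antigen, -0.09, 0.28, -0.00 and 1.39. *Lgals3*, the galectin of activated macrophages, had -0.58, -0.05, 0.18 and 1.73. In these defining markers the value of GSG loop 2 exceeded all of the others by far, and without both loops numbered 2 the median of the list was -0.01, against 0.45 without both loops numbered 1.

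Of 29 measured chemokines, 23 had loop-balanced means above 0, against 48.2% of all oligonucleotides, with a median of 0.13 (0.10 by the loop sum and 0.14 with the fitted slopes). The median was 0.05 without both loops numbered 1 and 0.23 without both loops numbered 2. At an unadjusted p under 0.05, 6 were higher and 1 was lower, against 2.07% and 3.43% of all. The monocyte chemoattractants *Ccl2* and *Ccl7*, which signal to the same receptor, had the highest values next to *Cxcl1*. Loop-balanced values were 1.69, -0.21, 1.58 and 1.99 for *Ccl2* (mean 1.26 ± 0.32, unadjusted p = 0.00476) and 1.46, -0.01, 0.85 and 1.49 for *Ccl7* (mean 0.95 ± 0.24, unadjusted p = 0.0046). In both genes BSG loop 2 showed no excess at 20 weeks while the other 3 loops did. Their loop sums averaged 1.61 and 1.40.

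*Cxcl1*, which attracts neutrophils, stood out in 1 loop, with values of 3.06, 0.25, 0.66 and 0.45 (mean 1.10 ± 0.42), and so did *Ccl4*, a macrophage inflammatory protein, with 1.39, 0.20, 0.41 and 0.06 (mean 0.51 ± 0.21). *Ccl9* had 0.07, 0.12, 0.50 and 0.97 (mean 0.41 ± 0.16), and *Ccl24*, an eosinophil attractant made by alternatively activated macrophages, a mean of 0.30 ± 0.12. The member below 0 at an unadjusted p under 0.05 was *Xcl1*, a chemokine of T and natural killer cells, with -0.42, -0.21, -0.47 and -0.26 (mean -0.34 ± 0.11). *Cxcl14* had -3.36 in GSG loop 1 and lay between -0.11 and 0.17 in the others.

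Interferon-responsive genes had loop-balanced means above 0 in 16 of 17 cases, but small ones, with a median of 0.13 (0.14 by the loop sum). *Ifit1* alone reached an unadjusted p under 0.05, and its values of 1.29, -0.00, 0.41 and 0.27 (mean 0.49 ± 0.20) were led by BSG loop 1. The median of these genes was 0.37 in BSG loop 1, and between -0.01 and 0.12 in the other loops. Without both loops numbered 1 it was 0.07. Of 18 lymphocyte genes, 15 had means above 0 with a median of 0.11 (0.04 by the loop sum), but the median was -0.02 without both loops numbered 1, 0 genes were above 0 in all 4 loops, and 0 reached an unadjusted p under 0.05 on the loop-balanced scale in limma. For the 14 genes of alternatively activated macrophages and the type 2 response the median was 0.11, with 11 above 0 and loop medians between 0.06 and 0.19, but their median loop sum was 0.005. Of 13 erythroid and blood genes 10 were above 0, with a median of 0.06 that was -0.01 without both loops numbered 1. Over all oligonucleotides 48.2% had a loop-balanced mean above 0 and 6.79% were above 0 in all 4 loops. At an unadjusted p under 0.05, 2.07% of all were higher.

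The matrix genes did not share a direction. Among 27 matrix enzymes and inhibitors, 16 had loop-balanced means above 0, and *Mmp12* was the only one at an unadjusted p under 0.05. *Timp1*, the inhibitor of several metalloproteinases that is produced in injured tissue, had -0.34 and 0.05 in BSG and 0.98 and 1.05 in GSG. The strains did not overlap, which with 2 loops per strain is a description only. Of 15 interstitial collagens, 12 had means below 0 (median -0.18, 0.05 by the loop sum, -0.15 with the fitted slopes). Their loop medians were -0.39 and -0.03 in BSG and -0.24 and 0.05 in GSG, and the median was 0.03 without both loops numbered 1 and -0.27 without both loops numbered 2. *Col3a1* was above 0 with 0.71, 0.09, 0.70 and 0.05 (mean 0.39 ± 0.15, loop sum 0.95). For the 19 basement membrane genes the median was -0.12 and 11 were below 0, with *Col15a1* and *Lama2*, the laminin alpha 2 chain to which the dystroglycan complex binds (mean -0.30 ± 0.11), at an unadjusted p under 0.05. Their median loop sum was 0.07, and their loop-balanced median without both loops numbered 1 was 0.01. Over all oligonucleotides 48.2% of loop-balanced means were above 0 and 51.8% below 0. At an unadjusted p under 0.05, 2.07% of all were higher and 3.43% lower.

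**Figure D4:**
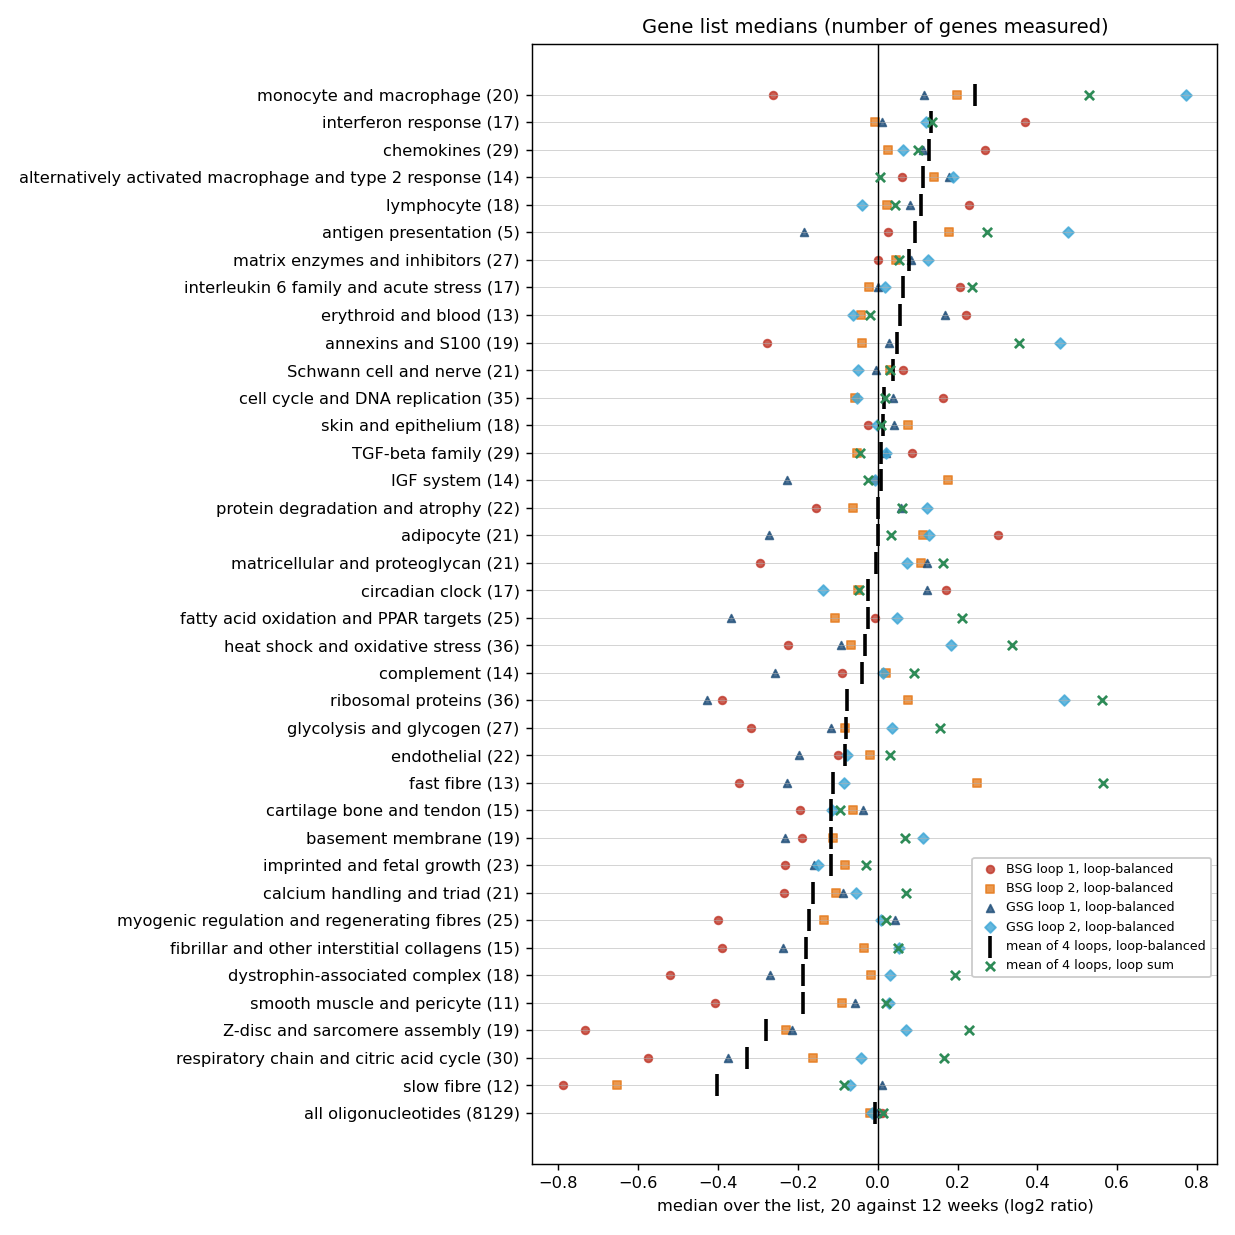
Medians of the log2 ratio of 20 against 12 weeks over the genes of each list (number of genes measured in brackets), with the loop-balanced median in each loop as a symbol, the median of the loop-balanced means as a bar and that of the loop sums as a cross. Macrophage genes had the highest median (0.24) and slow fibre genes the lowest (-0.40), the 4 loops of a list were often spread wider than the lists were apart, and the loop sums of fibre, respiratory and ribosomal protein genes lay to the right of their loop-balanced values.

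Genes of oxidative metabolism lay below 0 on the loop-balanced scale. Of 30 respiratory chain and citric acid cycle genes, 25 had means below 0, against 51.8% of all oligonucleotides, and 12 were below 0 in all 4 loops, against 8.19%. The median was -0.33, with -0.57 and -0.16 in the BSG loops and -0.37 and -0.04 in the GSG loops. At an unadjusted p under 0.05 there were 14 lower and 0 higher, against 3.43% and 2.07% of all, and none was called. With the fitted slopes the median was -0.26, with 26 below 0 (52.2% of all oligonucleotides) and 10 lower at an unadjusted p under 0.05 (3.28% of all). By the loop sum, however, the median of the list was 0.16, since 2 times the loop mean had a median of 0.52 over these genes, so the sign of this list depends on whether the loop mean is subtracted.

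Cytochrome c oxidase subunits, the last complex of the chain, held several of the lowest values. *Cox7a1*, the muscle isoform of subunit 7a, had -1.22, -0.41, -0.43 and -0.17 (mean -0.56 ± 0.18, loop sum 0.06), and *Cox7c* had -1.17, -0.47, -0.33 and -0.04 (mean -0.50 ± 0.18). For *Cycs*, cytochrome c itself, the values were -0.57, -0.43, -0.33 and -0.20 (mean -0.38 ± 0.11). In these 3 genes BSG loop 1 was lowest and GSG loop 2 nearest to 0. Enzymes of the citric acid cycle were among them as well, with *Suclg1* at -0.52 ± 0.19, *Mdh1* at -0.45 ± 0.14 and *Sdhb* at -0.37 ± 0.15. The members above 0 were *Sdha* (0.06), *Cox8a* (0.01), *Mdh2* (0.02) and 2 genes with a lone high value in GSG loop 1, *Fh1* (2.94) and *Cox7a2* (2.23).

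Fibre type genes gave different pictures for fast and slow fibres. The 13 fast fibre genes had a median of -0.11 with 9 below 0, but 0.56 by the loop sum, and the largest loop mean of all lists. Of 12 slow fibre genes, 10 had loop-balanced means below 0, with a median of -0.40 (-0.37 with the fitted slopes and -0.09 by the loop sum) and 5 at an unadjusted p under 0.05. *Casq2*, the calcium-storing calsequestrin of slow and cardiac muscle, had -1.61, -0.69, -0.05 and -0.27 (mean -0.65 ± 0.24). *Tnnt1*, the slow troponin T, had -2.15 and -1.07 in BSG and 0.23 and -0.27 in GSG. *Mb*, which encodes the oxygen carrier myoglobin, and *Fhl1*, a LIM protein of oxidative fibres, were the members above 0 (0.20 and 0.07). Over all oligonucleotides 51.8% of loop-balanced means were below 0, and 3.43% were lower at an unadjusted p under 0.05.

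Structural genes of the fibre followed the same direction. Of 19 genes of the Z-disc and sarcomere assembly, 16 had loop-balanced means below 0 (median -0.28, -0.21 with the fitted slopes, 0.23 by the loop sum) and 5 reached an unadjusted p under 0.05. *Tcap*, the titin cap protein telethonin, had -0.87, -0.21, -0.27 and -0.21 (mean -0.39 ± 0.14), and *Actn2*, alpha-actinin 2, which crosslinks actin at the Z-disc, -0.93, -0.55, -0.32 and -0.08 (mean -0.47 ± 0.15). For *Tcap* the study reports a gradual rise over its whole series in all strains, with high variability by array and qPCR. It proposes that the differences in *Tcap* level come from variation between individuals. *Ankrd1*, a stress-induced titin-binding protein, had 1.02, -0.16, -1.14 and 1.30, so that neither strain had 2 loops of one sign. For 21 genes of calcium handling the median was -0.16 with 17 below 0 (0.07 by the loop sum). The shares of all oligonucleotides were 51.8% below 0 and 3.43% lower at an unadjusted p under 0.05.

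In the dystrophin-associated complex itself, 14 of 18 measured genes had loop-balanced means below 0, against 51.8% of all oligonucleotides. Their median was -0.19 (-0.11 with the fitted slopes and 0.19 by the loop sum). *Dag1*, which encodes dystroglycan, had -1.20, -0.37, -0.41 and 0.02 (mean -0.49 ± 0.19), and *Sspn*, sarcospan, -0.58, -0.26, -0.23 and -0.18 (mean -0.31 ± 0.12). *Sgcb*, the gene whose product is missing in BSG, had -0.94 and -0.15 in BSG and -0.34 and 0.10 in GSG. Ratios between ages of 1 strain cannot check a deletion that all its mice carry. In BSG loop 1 the median of this list was -0.52 and in the other loops it lay between -0.27 and 0.03.

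For the lists of the muscle fibre the choice of loops mattered. Without both loops numbered 1 the loop-balanced median was -0.12 for the respiratory genes, -0.34 for the slow fibre genes, -0.08 for the Z-disc genes and -0.02 for the dystrophin-associated complex. Without both loops numbered 2 these were -0.53, -0.50, -0.41 and -0.40. The slow fibre genes thus kept their median best without the loops numbered 1. In the loops then left it was -0.65 in BSG and -0.07 in GSG. Across all oligonucleotides, the loop-balanced values correlated with 2 times the loop mean at -0.358 in BSG loop 1 and -0.232 in GSG loop 1. In BSG loop 2 and GSG loop 2 this was -0.016 and 0.182. The part of this remainder and of the duplicate-spot quality in the list medians was not tested.

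Imprinted and fetal growth genes, many of which are high in newborn muscle and silenced later, had loop-balanced means below 0 in 17 of 23 cases, against 51.8% of all oligonucleotides (median -0.12, -0.11 with the fitted slopes, -0.03 by the loop sum). At an unadjusted p under 0.05 there were 5 lower and 0 higher, against 3.43% and 2.07% of all, and 6 were below 0 in all 4 loops, against 8.19%. *Dlk1* had -0.87, -0.27, -0.29 and -0.47 (mean -0.47 ± 0.13, unadjusted p = 0.00777) and a mean loop sum of -0.42, so its ratio pointed down in all loops at an age when most of its decline lay behind it, as its course by age shows. In BSG loop 1 its values at 4 and 10 weeks, -0.57 and -0.24, already lay below that of the 12-week mouse, so the decline there was not steady. *Meg3*, the noncoding RNA of the same imprinted locus, had -1.03, 0.01, -0.15 and -0.54 (mean -0.43 ± 0.18). *H19*, the noncoding RNA expressed next to *Igf2*, had -1.32 and -0.70 in BSG and 0.00 and -0.16 in GSG (mean -0.54 ± 0.21), while *Igf2* had a mean of 0.20 ± 0.13. *Slc22a18* had -0.36 ± 0.12.

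Markers of the other cell types of muscle had medians from -0.19 to 0.04. Of 22 endothelial genes 18 had loop-balanced means below 0 and 6 were below 0 in all 4 loops, against 51.8% and 8.19% of all oligonucleotides, with a median of -0.08 that was -0.01 without both loops numbered 1, and *Mcam* (-0.51 ± 0.16), an adhesion molecule of endothelium and pericytes, and *Sox18* (-0.29 ± 0.11), a transcription factor of vessels, reached an unadjusted p under 0.05. For 11 smooth muscle and pericyte genes the median was -0.19 with 7 below 0, and 0.02 without both loops numbered 1. Adipocyte genes had a median of -0.0006 over 21 genes, with *Plin2*, which coats lipid droplets, at 0.28 ± 0.12 and *Ucp1*, of brown fat, at -0.54 ± 0.22. Among 21 genes of Schwann cells and nerve, 2 were higher and 2 lower at an unadjusted p under 0.05, of which *Snap25*, a presynaptic fusion protein, had -0.50 ± 0.14. The other oligonucleotide of the higher gene *Mbp* (0.31 ± 0.11), which encodes myelin basic protein, gave -0.03. Skin and epithelium (18 genes, median 0.01) and cartilage, bone and tendon (15 genes, median -0.12) held 1 and 2 genes lower at an unadjusted p under 0.05 and 0 higher. At that level 3.43% of all oligonucleotides were lower and 2.07% higher.

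Cell proliferation and regeneration gave no common direction. The 35 genes of the cell cycle and DNA replication had a median of 0.02 with 0 at an unadjusted p under 0.05 on the loop-balanced scale in limma. Of 25 genes of myogenic regulation and regenerating fibres, 17 were below 0, against 51.8% of all oligonucleotides (median -0.17, and -0.02 without both loops numbered 1). Among them *Myod1*, the transcription factor that commits cells to the muscle lineage, was at -0.32 ± 0.13. The 36 ribosomal protein genes had a median of 0.56 by the loop sum and -0.08 on the loop-balanced scale, with loop medians of -0.39, 0.08, -0.43 and 0.47, so that both loops numbered 1 lay below 0 and both loops numbered 2 above it. Glycolysis genes had a median of -0.08 over 27 genes, and those of fatty acid oxidation -0.03 over 25, of which *Ppard*, a lipid-sensing nuclear receptor, was above 0 at 0.37 ± 0.14.

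With the strains apart, the loop-balanced values of BSG and GSG had little in common. Across the 8129 oligonucleotides the 2 strain means correlated at 0.068 on the loop-balanced scale and at 0.345 by the loop sum, from which no loop mean was subtracted. The cause of this gap was not tested. No oligonucleotide was called for the difference between strains on the loop-balanced scale, and 279 had an unadjusted p under 0.05 (3.43%), with BSG higher in 136 (1.67%) and lower in 143 (1.76%). The smallest adjusted p was 0.954. The interval between 12 and 20 weeks was therefore not shown to differ between the strains for any gene, and the values that follow are descriptions.

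Slow fibre genes had lower values in the BSG loops than in the GSG loops. Of the 12, 10 were below 0 in both BSG loops and 4 in both GSG loops, against 29.4% and 24.9% of all oligonucleotides, and the strain medians were -0.73 and -0.02. Of the 12 genes, 5 had an unadjusted p under 0.05 for the difference, all with BSG lower, against 1.76% of all oligonucleotides. The difference was -1.59 ± 0.39 for *Tnnt1* (unadjusted p = 0.0049), -1.87 ± 0.47 for the slow troponin I gene *Tnni1*, and -1.05 ± 0.25 for *Atp2a2*, the calcium pump of slow muscle (adjusted p = 0.954 for each in limma). *Tnni1* had -2.27 and -0.92 in BSG and 0.66 and -0.11 in GSG, and *Atp2a2* -1.12 and -0.70 against 0.16 and 0.11. In both genes the strains did not overlap, which with 2 loops per strain is no support beyond the test of the difference. With 1 muscle taken from a mouse, the share of slow fibres in the sampled piece was not measured, and its part in these values was not tested.

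Macrophage genes had the opposite order, with higher values in GSG by the strain medians. By the loop medians the strains overlapped, at -0.26 and 0.20 in BSG and 0.12 and 0.77 in GSG. Of the 20, 13 were above 0 in both GSG loops and 4 in both BSG loops, against 22.4% and 26.9% of all oligonucleotides, and the strain medians were 0.42 and -0.02. Of the 20 genes, 5 had an unadjusted p under 0.05 for the difference, again all with BSG lower, against 1.76% of all oligonucleotides. *Ctss*, the lysosomal protease cathepsin S, had -0.88 and 0.09 in BSG and 0.99 and 1.28 in GSG (difference -1.53 ± 0.35, unadjusted p = 0.00351). *Mpeg1*, a pore-forming protein of macrophages, had -0.75 and 0.11 against 0.92 and 1.06 (difference -1.31 ± 0.32, unadjusted p = 0.00505). *Timp1* moved with them (difference -1.17 ± 0.25, unadjusted p = 0.00223), and adjusted p was 0.954 for all of these in limma. *Ctss*, *Mpeg1* and *Timp1* separated the strains in all 4 loops, whereas *Mmp12* (1.16, 0.57, 1.13 and 0.91) did not. With 2 loops per strain a low p of the difference goes with such separation, so it is no support beyond that p. The share of all oligonucleotides that separate the strains was not counted.

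By the loop sum, the genes with the lowest p for the difference between strains were led by *Per1*, a repressor of the circadian clock, with 0.61 and 0.83 in BSG and -0.99 and -0.34 in GSG (difference 1.38 ± 0.31, unadjusted p = 0.00365, adjusted p = 0.932 in limma). The loop-balanced difference was 1.32. The study notes that animals of a strain and age were killed at a common time of day that varied between strains and ages, so strain and time of day cannot be told apart for a clock gene. Over the 17 clock genes the loop-balanced median was -0.02 and 0 reached an unadjusted p under 0.05 in the mean of the 4 loops. *Rgs16*, a regulator of G protein signalling, had a difference of 1.41 ± 0.36.

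At the other end *Serp1*, a protein that protects membrane proteins in the endoplasmic reticulum, had loop sums of -0.45 and -0.74 in BSG and 0.45 and 0.68 in GSG (difference -1.16 ± 0.27, unadjusted p = 0.0042). *Col1a1*, the alpha 1 chain of the main fibrillar collagen, had -0.20 and -0.24 in BSG and 0.78 and 0.93 in GSG (difference -1.07 ± 0.26, adjusted p = 0.932), and its loop-balanced difference was -0.67. *Col3a1*, its usual partner, did not follow it, with a loop-balanced mean of 0.40 in BSG and 0.38 in GSG. *Sap30*, of a histone deacetylase complex, had a difference of -1.07 ± 0.26 and a loop-balanced one of -1.02.

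Taken as single steps, 14 against 12 weeks gave 2 called oligonucleotides of 8129 (0.0246%) with 833 at an unadjusted p under 0.05, and 20 against 14 weeks gave 0 (0.00%) with 679. The 2 called had no gene symbol and log2 ratios of -2.22 (adjusted p = 0.015) and -1.62 (adjusted p = 0.0176) in limma. They are the points at the far left of the plot against the loop mean, and their loop-balanced values for 20 against 12 weeks were 0.39 and 0.74. With loop-balanced values the first step had 0 called.

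The steps differed between genes. *Mmp12* averaged 0.44 ± 0.31 from 12 to 14 weeks and 0.50 ± 0.40 from 14 to 20 weeks, *Ccl2* 0.98 ± 0.40 and 0.29 ± 0.16, *Cox8b* -0.51 ± 0.16 and -0.02 ± 0.22, and *Tnnt1* 0.12 ± 0.26 and -0.93 ± 0.21 on the loop-balanced scale. In the mean, the value of *Ccl2* and *Cox8b* thus came mainly with the first step and that of *Tnnt1* with the second. In *Mmp12* the spread between loops was too wide to place it. For *Tnnt1* the first step was -0.54 and -0.65 in BSG but 0.75 and 0.90 in GSG. Its mean of 0.12 therefore joins opposite signs, and the strains already lay apart after this step. The 14-week mouse enters both steps with opposite sign.

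**Figure D5:**
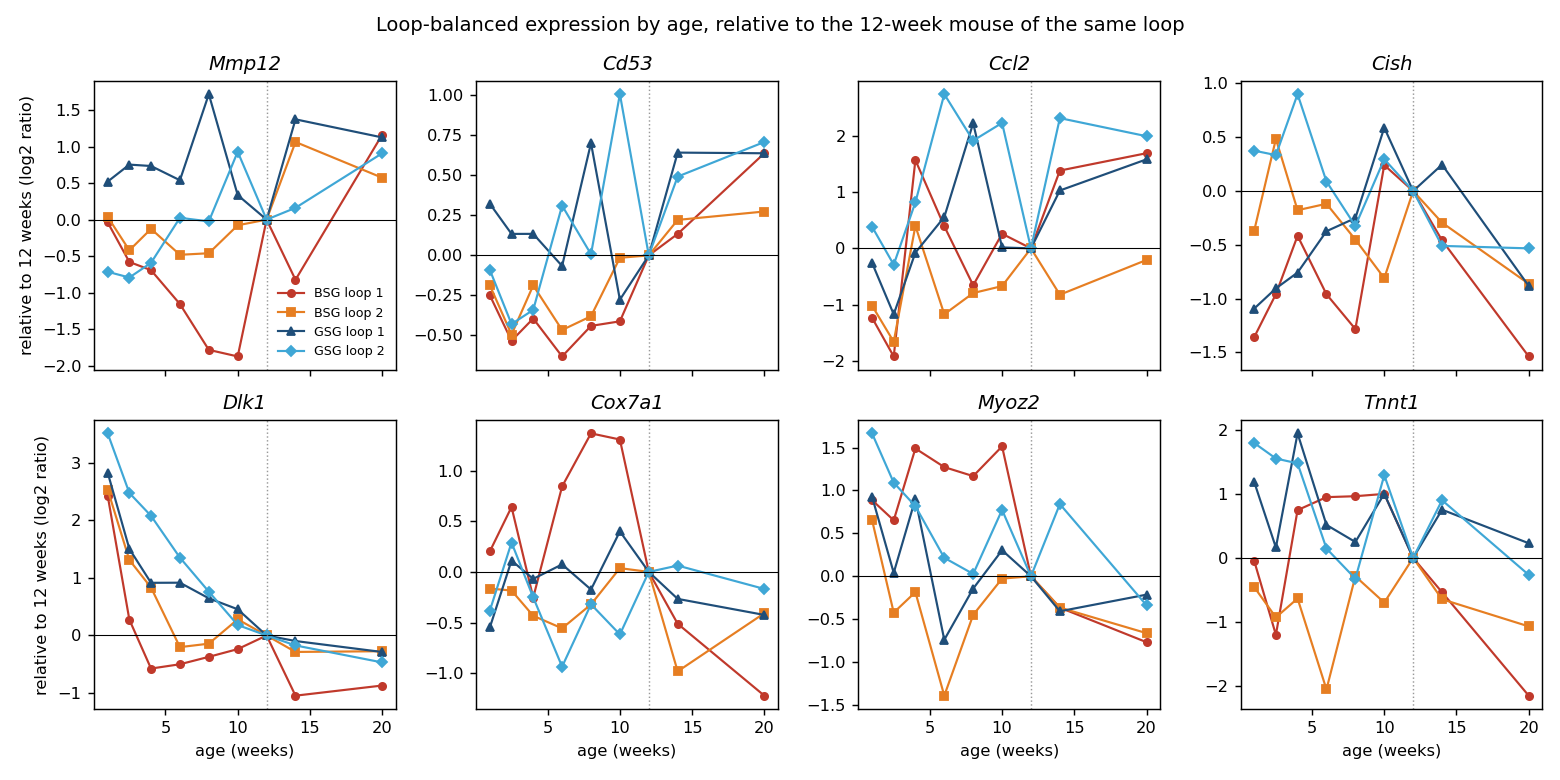
Loop-balanced expression of 8 genes by age (x axis, weeks) as a log2 ratio to the 12-week mouse of the same loop (y axis), 1 line per loop, with the dotted line at 12 weeks. *Dlk1* declined steeply after 1 week in all loops and ended below 0, *Mmp12* and *Cd53* ended above 0 in all loops and *Cish*, *Cox7a1* and *Myoz2* below 0. Before 12 weeks, however, the lines of all 8 genes ran on both sides of 0, those of *Dlk1* below 0 in the BSG loops only.

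The course by age shows how 12 weeks compares with its neighbours. In BSG loop 1 *Mmp12* lay at -1.87 at 10 weeks relative to 12 weeks, at -0.82 at 14 weeks and at 1.16 at 20 weeks. The swing between ages of this loop was thus wider than the mean difference of 0.94. *Cox7a1* in the same loop lay at 1.31 at 10 weeks and at -1.22 at 20 weeks. The 10-week values of BSG loop 1 rest on its 12/10 array, on which duplicate spots correlated at -0.096. That array and the 10/8 array of the loop (0.024) also enter the loop mean behind all of its loop-balanced values. What part of these swings lies in the mice and what part in the arrays was not tested. *Ccl2* in GSG loop 2 lay between 1.91 and 2.74 at 6, 8 and 10 weeks and at 2.31 and 1.99 at 14 and 20 weeks, so that its 12-week mouse stood below those on either side. Each age of a loop is 1 mouse, and the 12-week mouse sets the reference of all values in it.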

How the data were processed

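Amplified RNA of quadriceps muscle carried Cy3 or Cy5 on arrays of 65-mer mouse oligonucleotides. After GenePix scans the authors corrected for position on the slide, dye and array with all.norm (smida package) and deposited log ratios, taken here as log2 of Cy5 over Cy3, since neither base nor direction is stated. The 2 spots of an oligonucleotide were averaged. No value was missing and no filter was applied. The mice of an age and strain were separate animals, littermates for most ages.

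Loop sums, loop-balanced values and loop means were tested with limma (version 3.58.1, R 4.3.3; lmFit and eBayes, residual df 3) and Benjamini-Hochberg adjustment over 8129 oligonucleotides at 0.05. A ± is limma's standard error. In the strain tests the 4 loops share 1 spread. Steps were checked on simulated data. The number of loops limits the precision (median standard error 0.145, or 0.128 loop-balanced).

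Up to 12 genes per direction were named, by the lowest p among those with 1 sign in all 4 loops and, for loop sums, an absolute mean of at least 0.5. A further 6 per direction were named for the strain difference. Per list, up to 3 members were named by the p of the loop sum and up to 3 by that of the loop-balanced value. Further list members were picked after their values were seen. In the 39 lists a gene with several oligonucleotides was represented by that whose absolute log ratios averaged highest over the 36 arrays. Members, lists and rules were chosen with earlier results of these data known. Loop-balanced values, fitted slopes and the omission of both loops numbered 1 were added after seeing the data. Other alternatives were all 36 arrays with and without a dye term, arrays as separate observations, centring, scaling, single spots, the moderation, array weights and leaving out each loop.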

Additional observations from a re-analysis of the deposited data

Results flagged for a closer look

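In *Cd53*, the leukocyte tetraspanin, the loop-balanced value of BSG loop 2 was 0.274, apart from the other loops at 0.64, 0.64 and 0.71. It lay far from the nearest of the others relative to the range of the 4 loops, by Dixon's criterion, which chance meets in about 1 of 20 such sets. The genes ranked by the loop sum or by the loop-balanced value were all looked at in this way. Of 48 tested 1 was flagged, while chance flags 5%, so a flag of this kind is not unusual.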

How the results depend on the processing

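For the mean of the 4 loops, 0 oligonucleotides were called with all 36 arrays, with or without a dye term, with centred arrays, with the first spots, with loop-balanced values and with fitted slopes. Centring and scaling called 1 (*Nr4a2*), robust moderation 1 (*Nr4a2*), least squares without moderation 1 (*Phlda2*), second spots 3 (*Itgb3*, *En1* and 1 without a symbol), array weights 7, and the omission of both loops numbered 1 called 915, or 4 loop-balanced. The loops of both strains carry the numbers 1 and 2, but no label ties mice across strains, so the pairing tried was that of the 2 arrays of a loop. With no replicate block, the 8 arrays as separate observations, 6 were called (2 higher, 4 lower), and 0 in BSG, in GSG and for their difference. With each loop left out in turn, the count ranged from 0 to 20 for the mean, 0 to 2 in BSG, 0 to 88 in GSG, 0 to 64 for BSG minus GSG and 0 to 13 for 14 against 12 weeks. On loop-balanced values it reached 102 in GSG and 70 for the difference, both without GSG loop 2. A lone loop was assumed to vary like those of the other strain. The 2 calls for 14 against 12 weeks became 0 without moderation and 0 on loop-balanced values. With all 36 arrays, with a dye term and on loop-balanced values alike, the mean turned to -0.013 for *En1*, -0.042 for *Mtpn*, -0.17 for *Arc*, -0.29 for *Tnnc2*, 0.14 for *Slc6a9*, 0.017 for *Rab21* and 0.087 for *Fut8*. With fitted slopes it was -0.008 for *Arc* and -0.11 for *Tnnc2*, and the others kept the sign of the loop sum. The medians of 13 lists moved by more than the spread between loops on loop-balanced values, among them the respiratory chain (-0.33), the Z-disc (-0.28), fast fibre (-0.11) and ribosomal proteins (-0.08). Without BSG loop 2 the median of the chemokine loop sums was 0.24. The cause of these shifts was not tested. A constant offset per loop is an assumption of the loop-balanced values.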

Other observations

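Further groups of genes gave small loop-balanced medians for 20 against 12 weeks. Annexins and S100 proteins, which bind calcium and membranes, had a median of 0.05 over 19 genes with 12 above 0, and a median loop sum of 0.35. The 5 antigen presentation genes measured had 0.09, with 4 above 0. Over all oligonucleotides 48.2% were above 0. Complement genes had -0.04 over 14 genes and those of the interleukin 6 family and acute stress 0.06 over 17. Heat shock and oxidative stress genes had -0.03 over 36 genes, against 0.34 by the loop sum. Matricellular and proteoglycan genes (21, median -0.01), the TGF-beta family (29, median 0.01), the IGF system (14, median 0.01) and genes of protein degradation and atrophy (22, median 0.002) lay close to 0. The newborn muscle genes used for the direction had -0.24 over 17 genes, and the 40 measured genes that the study's text names, which were chosen on these samples among others, had -0.03.

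Single loops held isolated values. *Hspb7*, a small heat shock protein of heart and muscle, had -3.25 in GSG loop 1 and between -0.41 and 0.20 in the others, and *Egr2*, an immediate-early gene that also directs myelination, had 2.52 in BSG loop 1 and at most 0.22 in the others. Both extremes lay in loops numbered 1.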
